A study of Arabidopsis thaliana with 9 samples.

Results

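The cysteine-rich receptor-like kinases (CRKs) of Arabidopsis thaliana were followed across 9 arrays of seedling shoots. The family was taken as a fixed list of 40 locus identifiers, and 36 of these had a value among the 20777 loci measured. CRK6 (AT4G23140), CRK8 (AT4G23160), CRK39 (AT4G04540) and CRK40 (AT4G04570) are not analysed here. RNA came from the vegetative part of seedlings, all labelled Col-0, harvested at growth stage 1.03 from in vitro culture at 22 °C; the daily light period was 16 h and the dark period 8 h, and the medium was MS. There were 3 biological repeats of each of 3 genotypes. The first is labelled 35S::AVP1, in which a strong constitutive viral promoter drives AVP1, the proton-pumping pyrophosphatase of the vacuole. The second carries extra BRI1, the brassinosteroid receptor; its genotype entry gives pBRI1::BRI1 and its source name 35S::BRI1, so the promoter is not settled, and it is called the BRI1 line. The third is wild type Col-0, the control for both. The labels name no insertion event or number of independent lines for either construct. The series concerns different routes to larger leaves.

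CRKs are single-pass membrane kinases. Their outer part carries a pair of DUF26 domains held together by conserved cysteines, and their inner part is a serine/threonine kinase. Many members respond to pathogens, salicylic acid or reactive oxygen species, and several act in immune signalling and in the control of cell death in leaves. Most of the genes lie on chromosome 4, where they form tandem arrays of neighbouring copies. In the family list, members with close locus numbers make up 4 such groups there: AT4G04490 to AT4G04570, AT4G11460 to AT4G11530, AT4G21230 to AT4G21410, and AT4G23130 to AT4G23320.

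Values are log2 levels made by the authors with RMA, a method that corrects background, scales arrays to each other and summarises the probes of a gene. A difference of 1 on this scale is 2-fold. Array medians lay between 6.34 and 6.42, and the 10th percentile of the arrays between 3.71 and 3.79. The table holds no detection calls, so a level near or below that percentile is described as lying at the low end of the scale. By genotype mean, 6 of the 36 members lay at or below 3.79 in all 3 genotypes: CRK15, CRK20, CRK23, CRK31, CRK32 and CRK36. For these, a difference between genotypes could go unseen. Levels of different genes on an array are not comparable, so each gene is compared only with itself across arrays. Which probes stand for each locus was not stated, and signal shared between similar family members was not tested. RNA from whole shoots does not tell fewer expressing cells from less RNA per cell.

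The genes named in the labels were examined first. BRI1 (AT4G39400) was at 12.18, 12.34 and 12.33 in the BRI1 line, against 9.55, 9.58 and 9.51 in wild type, and was called higher (limma adjusted p = 7.75e-08). AVP1 (AT1G15690) was at 12.49, 12.55 and 12.57 on the arrays labelled 35S::AVP1, against 12.58, 12.59 and 12.71 in wild type (log2 difference -0.09, limma adjusted p = 0.489). AVP1 RNA was thus not higher on the arrays that bear its label, and they are called the arrays labelled 35S::AVP1 throughout. They also stood apart from the others: they correlated with the remaining 6 arrays at 0.980 to 0.987 across loci, whereas arrays of 1 genotype correlated with each other at 0.990 to 0.997. Of 4 leaf markers chosen, 2 were measured. RCA and CA1 lay at 14.10 to 14.32 and 13.66 to 13.88 on all 9 arrays. CA1 was highest on the arrays labelled 35S::AVP1 and lowest in wild type, with no overlap among the genotypes. It was not called between those genotypes (0.15, limma adjusted p = 0.141).

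On the arrays labelled 35S::AVP1, 7 of the 36 CRKs fell and 5 rose relative to wild type (limma, Benjamini-Hochberg adjusted p under 0.05 over all loci). The falls were CRK21, CRK22, CRK19, CRK18, CRK30, CRK28 and CRK29, and the rises were CRK41, CRK5, CRK4, CRK1 and CRK24. These 12 are 33.3% of the measured family, where 11.1% of all loci were called, 4.76% lower and 6.31% higher; after median centring or quantile normalization slightly more loci were called lower than higher. At least 2-fold differences were found for 5 members, all lower, where 1.66% of all loci were both called and at least 2-fold apart. The calls went both ways, and the median log2 difference of its members was 0.03, and that of all loci 0.05. Arrays of both genotypes did not overlap for 15 members (41.7%), against 28.4% of all loci; 6 members lay higher and 9 lower throughout, against 18.8% and 9.63% of all loci.

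In the BRI1 line, 0 of 36 members were called against wild type by limma, where 0.0818% of all loci were called. At an unadjusted p under 0.05 there were 2 of 36 members, where 1102 of 20777 loci were. The lowest adjusted p of a member was 0.112, for CRK30. The 95% interval of the log2 difference lay within 1 in either direction for 36 of 36 members and within 0.5 for 31. These counts include members at the low end of the scale, 10 in the BRI1 line and 7 in wild type, where a difference could go unseen. Members differed by -0.69 to 0.15, with a median of -0.03 where that of all loci was -0.01. Groups did not overlap for 4 members (11.1%), close to the 10.1% of all loci: CRK1 was higher throughout, where 4.38% of all loci were, and CRK2, CRK12 and CRK30 lower, where 5.75% were.

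**Figure D1:**
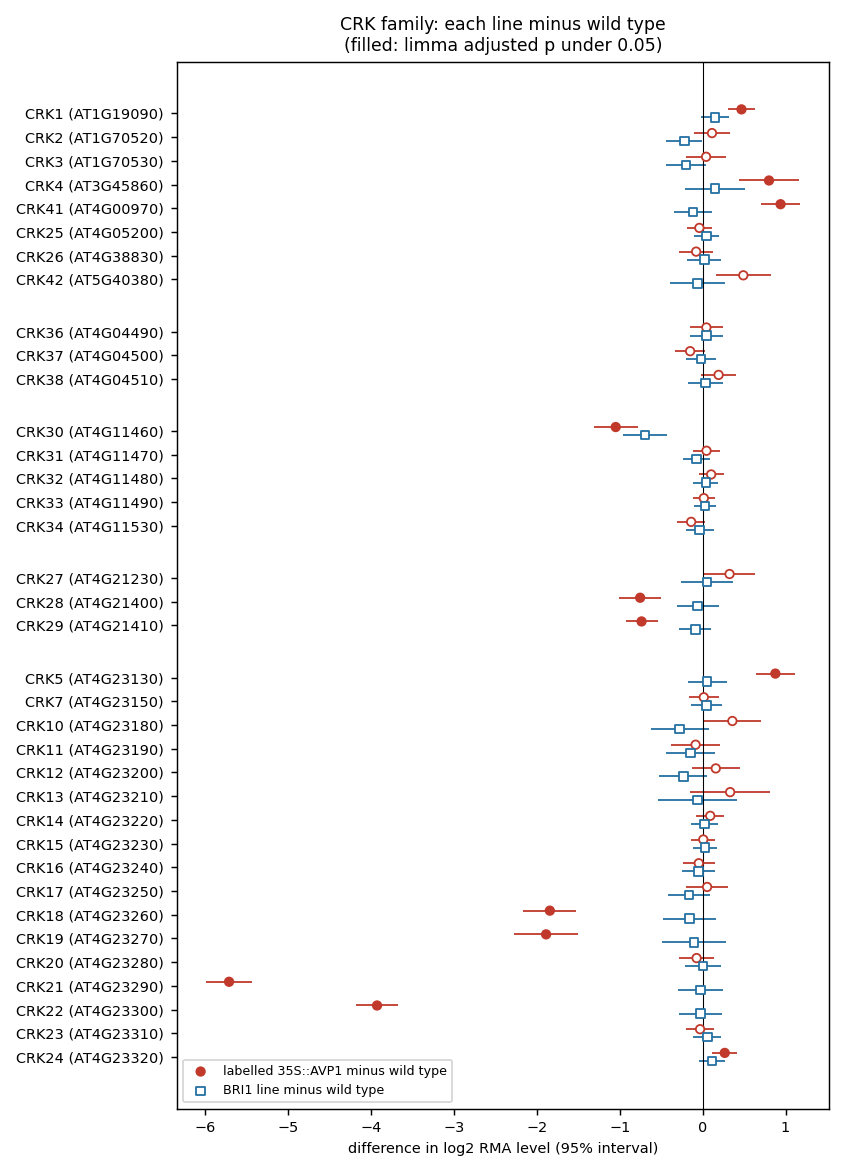
Difference in log2 RMA level of each measured CRK from wild type, with 95% intervals from limma, for the arrays labelled 35S::AVP1 (red circles) and the BRI1 line (blue squares), n = 3 arrays a genotype. Genes are grouped by place, first those outside the chromosome 4 groups and then the 4 groups in order of locus number, and filled symbols have an adjusted p under 0.05. CRK21 and CRK22 lie far to the left at -5.71 and -3.93 in red, while every blue interval stays within 1 of zero.

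The largest group, AT4G23130 to AT4G23320, holds 19 listed members, of which 17 were measured. Here 4 fell (23.5%) and 2 rose (11.8%) on the arrays labelled 35S::AVP1, where 4.76% of all loci were called lower and 6.31% higher. All 4 falls lay among 5 measured members with consecutive locus numbers, AT4G23260 to AT4G23300. In the other 12 measured members of the group the difference ran from -0.08 to 0.88, with 2 called, both higher. Among them, CRK7, CRK11, CRK13, CRK14, CRK15 and CRK23 had wild type means of 3.55 to 3.94, near or below the low end. A fall in these could hardly have been measured, so the falls cannot be said to be confined to the 5 consecutive members.

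CRK21 (AT4G23290) had the largest fall of the family. It was at 3.22, 3.34 and 3.33 on the arrays labelled 35S::AVP1, at 9.16, 8.89 and 8.90 in the BRI1 line, and at 9.25, 9.03 and 8.75 in wild type. All arrays labelled 35S::AVP1 lay below the 10th percentile of the arrays, and the BRI1 line and wild type overlapped. The difference from wild type was -5.71 (SE 0.12, 95% interval -5.99 to -5.44, limma adjusted p = 1.69e-09), a signal 52.4-fold lower. Because CRK21 sits at the low end of the scale on these arrays, that end limits the measured fold. Whether the probes match the gene sequence carried by this line, and whether its background is the labelled Col-0, was not tested, here or for the other members that fell.

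CRK22 (AT4G23300), the next locus, also fell. It was at 3.85, 3.80 and 3.93 on the arrays labelled 35S::AVP1, at 7.85, 7.71 and 7.71 in the BRI1 line, and at 8.06, 7.76 and 7.54 in wild type. The arrays labelled 35S::AVP1 stood just above the low end of the scale, which limits the measured fold, and 15.2-fold below wild type (log2 difference -3.93, SE 0.12, limma adjusted p = 1.57e-08).

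CRK19 (AT4G23270) and CRK18 (AT4G23260) fell less and remained well above the low end. CRK19 causes a hypersensitive-like cell death when overexpressed. It was at 6.10, 6.73 and 6.03 on the arrays labelled 35S::AVP1, at 8.04, 7.99 and 8.18 in the BRI1 line, and at 7.93, 8.27 and 8.32 in wild type. The difference from wild type was -1.89 (SE 0.17, 95% interval -2.28 to -1.50, limma adjusted p = 7.69e-05), or 3.70-fold lower. CRK18 was at 4.91, 5.27 and 4.63 on the arrays labelled 35S::AVP1, at 6.70, 6.58 and 6.58 in the BRI1 line, and at 6.89, 6.82 and 6.61 in wild type. Its difference from wild type was -1.84 (SE 0.14, 95% interval -2.16 to -1.52, limma adjusted p = 2.36e-05). For both genes, replicate 2 labelled 35S::AVP1 was the highest of its genotype, and still below every wild type array.

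CRK20 (AT4G23280) lies between CRK19 and CRK21 by locus number. CRK20, another inducer of cell death on overexpression, was at 3.50, 3.23 and 3.54 on the arrays labelled 35S::AVP1, and at 3.43, 3.60 and 3.45 in wild type. With all 9 arrays at the low end, a fall in CRK20 could not have been measured. CRK23 (AT4G23310), the locus after CRK22, was likewise at the low end on every array, at 3.49 to 3.70.

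At the ends of this group, CRK5 and CRK24 rose. CRK5 (AT4G23130) has been linked to defence, cell death and abscisic acid responses. It was at 5.29, 5.17 and 5.46 on the arrays labelled 35S::AVP1, at 4.31, 4.52 and 4.63 in the BRI1 line, and at 4.52, 4.30 and 4.46 in wild type. It was 1.84-fold above wild type (log2 difference 0.88, SE 0.11, limma adjusted p = 0.000439), with no overlap. CRK24 (AT4G23320) was at 4.80, 4.76 and 4.70 on the arrays labelled 35S::AVP1, at 4.52, 4.61 and 4.68 in the BRI1 line, and at 4.43, 4.53 and 4.51 in wild type. The rise of CRK24 was small, 0.27 (limma adjusted p = 0.0322), and its call was lost without replicate 1 or 2 labelled 35S::AVP1 or any 1 wild type array (adjusted p 0.0613 to 0.105).

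CRK10 (AT4G23180) was at 8.66, 8.47 and 8.68 on the arrays labelled 35S::AVP1, at 7.80, 8.12 and 7.98 in the BRI1 line, and at 8.63, 8.13 and 7.96 in wild type. Wild type replicate 1 reached the level of the arrays labelled 35S::AVP1, and the difference of 0.36 from wild type was not called (limma adjusted p = 0.196). Without wild type replicate 1 it was 0.55 and was called (limma adjusted p = 0.0141). CRK12 (AT4G23200) was at 5.07, 5.56 and 5.03 on the arrays labelled 35S::AVP1, at 4.85, 4.91 and 4.72 in the BRI1 line, and at 5.07, 4.98 and 5.13 in wild type. It was not called in either line, although every array of the BRI1 line lay below every wild type array.

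CRK13 (AT4G23210), whose overexpression gives salicylic acid-dependent resistance to a bacterial pathogen, turned on 1 array. It was at 3.88, 4.80 and 3.78 on the arrays labelled 35S::AVP1, at 3.74, 3.84 and 3.69 in the BRI1 line, and at 3.79, 3.81 and 3.87 in wild type. Replicate 2 labelled 35S::AVP1 stood alone, and the mean difference of 0.33 was not called (limma adjusted p = 0.391). Of the remaining members of the group, CRK7, which takes part in the response to extracellular reactive oxygen species, CRK11, CRK14, CRK15, CRK16 and CRK17 differed from wild type by -0.08 to 0.09 on the arrays labelled 35S::AVP1, and none was called. Of these, CRK7, CRK11, CRK14 and CRK15 had wild type means of 3.55 to 3.94, where a fall could hardly have been measured.

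**Figure D2:**
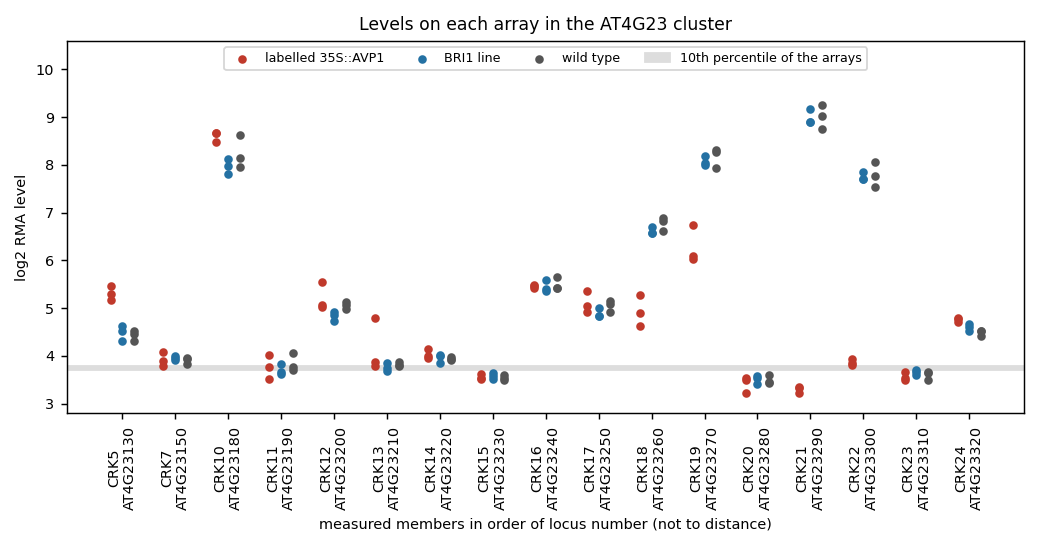
Log2 RMA level on each of the 9 arrays for the 17 measured members of the AT4G23130 to AT4G23320 group, in order of locus number; each point is 1 array, coloured by genotype, and the grey band is the range of the arrays' 10th percentile (3.71 to 3.79). From CRK18 to CRK22 the red points (labelled 35S::AVP1) lie below the blue (BRI1 line) and grey (wild type) points, except at CRK20, where all 9 arrays are under the band.

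The loci flanking this group were counted for comparison. Of the 10 measured non-member loci on either side of it, 20 in all, 3 rose and 0 fell on the arrays labelled 35S::AVP1, with differences from -0.24 to 0.80 and a median of 0.09. None of them was as low as CRK18, the least changed of the 4 members that fell. Across the other 3036 measured loci of chromosome 4, 11.4% were called, close to the 11.1% of all loci.

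In the AT4G11460 to AT4G11530 group, 1 of 5 measured members was called on the arrays labelled 35S::AVP1 (20%, where 11.1% of all loci were). CRK30 (AT4G11460), its first member, was at 4.26, 4.02 and 3.81 on the arrays labelled 35S::AVP1, at 4.49, 4.35 and 4.31 in the BRI1 line, and at 4.91, 5.18 and 5.14 in wild type. It was the 1 member whose arrays lay below all wild type arrays in both lines. Its replicate 3 labelled 35S::AVP1 came close to the low end of the scale, which limits the measured fall. The difference was -1.05 on the arrays labelled 35S::AVP1 (SE 0.12, 95% interval -1.31 to -0.78, limma adjusted p = 0.000296). In the BRI1 line it was -0.69 (95% interval -0.96 to -0.43) and did not pass the test over all loci (limma adjusted p = 0.112). Both comparisons use the same wild type arrays. CRK34 (AT4G11530), the last of the group, was at 4.26, 4.36 and 4.42 on the arrays labelled 35S::AVP1, at 4.34, 4.48 and 4.52 in the BRI1 line, and at 4.55, 4.48 and 4.43 in wild type, and was not called. CRK31, CRK32 and CRK33 differed from wild type by 0.01 to 0.10 on the arrays labelled 35S::AVP1. The flanking 20 loci held 1 rise and 3 falls there (20% called), with differences between -0.43 and 0.35.

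CRK28 and CRK29, neighbours at the end of the AT4G21230 to AT4G21410 group, fell together. CRK28 (AT4G21400) strengthens pattern-triggered immunity when overexpressed, and its protein associates with the co-receptor BAK1 and with CRK29. It was at 4.42, 4.37 and 3.97 on the arrays labelled 35S::AVP1, at 4.99, 4.91 and 4.94 in the BRI1 line, and at 5.08, 5.03 and 4.90 in wild type (log2 difference from wild type -0.75 on the arrays labelled 35S::AVP1, SE 0.11, limma adjusted p = 0.00197). CRK29 (AT4G21410) was at 4.29, 4.26 and 4.17 on the arrays labelled 35S::AVP1, at 4.98, 4.81 and 4.87 in the BRI1 line, and at 4.81, 5.07 and 5.05 in wild type (-0.74, SE 0.09, limma adjusted p = 0.000381). In both genes the arrays labelled 35S::AVP1 lay under all 6 others. CRK27 (AT4G21230), which 13 measured non-member loci separate from them together with others not measured, was at 4.72, 5.30 and 5.0 on the arrays labelled 35S::AVP1, at 4.58, 4.71 and 4.90 in the BRI1 line, and at 4.58, 4.81 and 4.65 in wild type, and was not called (0.32, limma adjusted p = 0.190). Of those 13 loci 1 rose and 0 fell, and of the flanking 20 loci 0 rose and 2 fell, on the arrays labelled 35S::AVP1. These were 7.69% and 10%, where 11.1% of all loci were called.

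In the AT4G04490 to AT4G04570 group 3 of 5 members were measured. On the arrays labelled 35S::AVP1 limma called 0 of them, where 11.1% of all loci were called. At an unadjusted p under 0.05 there were 0, where 5027 of 20777 loci were. CRK36 (AT4G04490), whose protein associates with the immune kinase BIK1, was at the low end: 3.33, 3.31 and 3.12 on the arrays labelled 35S::AVP1, 3.38, 3.18 and 3.21 in the BRI1 line, and 3.33, 3.15 and 3.15 in wild type. CRK38 (AT4G04510) was at 4.12, 4.06 and 4.39 on the arrays labelled 35S::AVP1, at 4.09, 3.94 and 4.07 in the BRI1 line, and at 4.06, 3.99 and 3.95 in wild type. CRK37 (AT4G04500) differed from wild type by -0.15 on the arrays labelled 35S::AVP1. The flanks held 3 rises and 1 fall among 20 loci there (20% called).

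Of the 8 members outside these groups, 3 rose (37.5%) and 0 fell on the arrays labelled 35S::AVP1, where 6.31% of all loci were called higher and 4.76% lower. CRK41 (AT4G00970) had the largest rise of the family. It was at 4.63, 5.04 and 4.80 on the arrays labelled 35S::AVP1, at 3.75, 3.70 and 3.84 in the BRI1 line, and at 3.94, 3.76 and 3.94 in wild type. The arrays labelled 35S::AVP1 stood above all others, 1.92-fold over wild type (log2 difference 0.94, SE 0.10, limma adjusted p = 0.000254). The wild type level lies near the low end of the scale, which limits that fold.

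CRK4 (AT3G45860), which associates with the flagellin receptor FLS2 and causes cell death on overexpression, was at 5.93, 6.52 and 5.94 on the arrays labelled 35S::AVP1, at 5.57, 5.50 and 5.37 in the BRI1 line, and at 5.46, 5.45 and 5.08 in wild type. It rose by 0.80 over wild type (SE 0.16, limma adjusted p = 0.0105), and by 0.60 without replicate 2 labelled 35S::AVP1. CRK1 (AT1G19090, also RKF2) was at 3.97, 3.97 and 4.16 on the arrays labelled 35S::AVP1, at 3.67, 3.78 and 3.68 in the BRI1 line, and at 3.53, 3.54 and 3.62 in wild type (0.47 over wild type, limma adjusted p = 0.00274), again from the low end. The genotypes were ordered without overlap in CRK1, although the BRI1 line was not called against wild type (0.15, limma adjusted p = 0.950).

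CRK2 (AT1G70520), a kinase that phosphorylates the NADPH oxidase RBOHD, was at 7.79, 8.07 and 7.85 on the arrays labelled 35S::AVP1, at 7.53, 7.66 and 7.53 in the BRI1 line, and at 7.95, 7.76 and 7.66 in wild type. It was not called in either line (limma adjusted p = 0.539 and 0.936). CRK42 (AT5G40380) was at 7.02, 6.99 and 7.02 on the arrays labelled 35S::AVP1, at 6.70, 6.24 and 6.43 in the BRI1 line, and at 6.69, 6.70 and 6.17 in wild type. CRK42 was above both other genotypes without overlap on the arrays labelled 35S::AVP1, by 0.49 over wild type, short of the threshold (limma adjusted p = 0.0684). CRK3, CRK25 and CRK26 differed from wild type by -0.08 to 0.04 there.

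**Figure D3:**
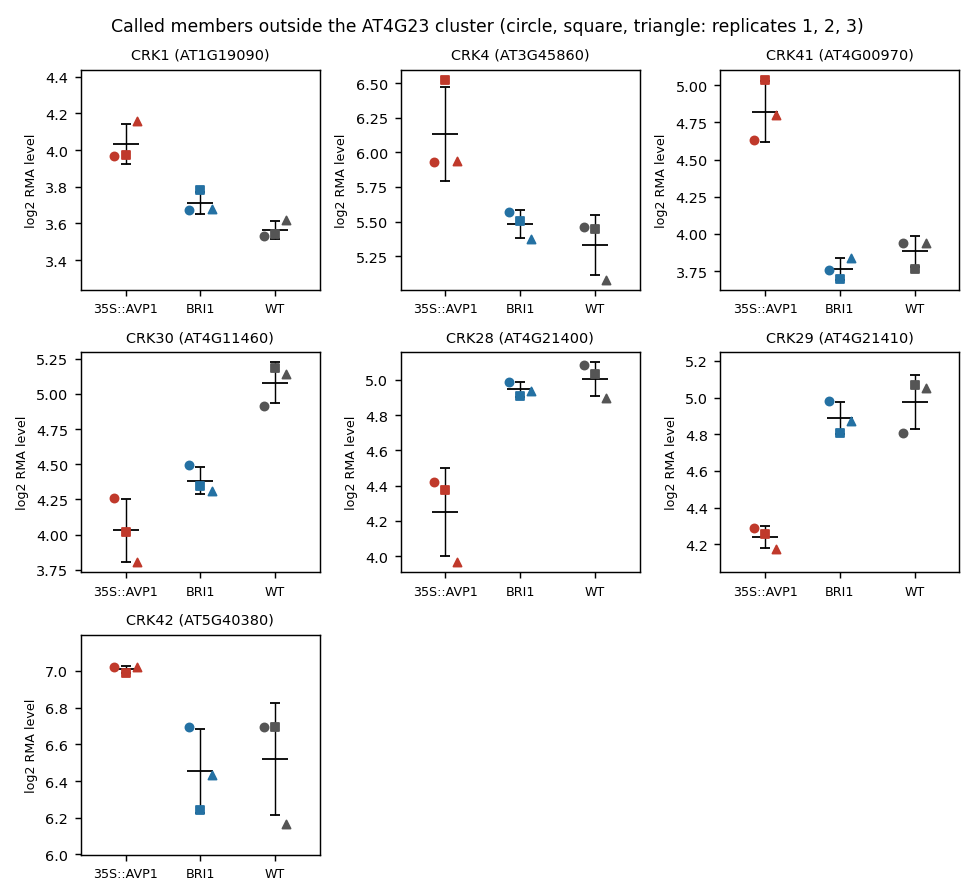
Log2 RMA level by genotype for the 7 members outside the AT4G23130 to AT4G23320 group that were called against wild type or between the lines; each symbol is 1 array, the bar is the mean and the whiskers are ± 1 SD (n = 3), and each panel has its own vertical axis, which does not start at 0. CRK41 and CRK4 are high and CRK28 and CRK29 low on the arrays labelled 35S::AVP1. CRK30 is low in both lines but was not called against wild type in the BRI1 line.

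The lines were compared directly to test whether they differ in these genes. Of 36 members, 6 were higher and 6 lower in the BRI1 line than on the arrays labelled 35S::AVP1 (33.3%), where 10.3% of all loci were called, 4.05% higher and 6.27% lower. Of these 12, 10 were also called against wild type on the arrays labelled 35S::AVP1. Both comparisons use the arrays labelled 35S::AVP1. CRK21 was 5.69 higher in the BRI1 line (limma adjusted p = 1.76e-09), CRK22 3.90, CRK19 1.79 and CRK18 1.69, with CRK28 at 0.69 and CRK29 at 0.65. CRK41 (-1.06, limma adjusted p = 0.000117), CRK5 (-0.82) and CRK4, CRK10, CRK42 and CRK1 (-0.65 to -0.32) were lower in the BRI1 line. CRK30 (0.35, 95% interval 0.09 to 0.62, limma adjusted p = 0.0932) and CRK24 (-0.15, limma adjusted p = 0.206) were not called between the lines; without replicate 1 labelled 35S::AVP1 CRK30 was (0.47, limma adjusted p = 0.0350), and without wild type replicate 1 CRK2 was (-0.33, limma adjusted p = 0.0366). Arrays of the lines did not overlap for 17 members, 8 higher and 9 lower in the BRI1 line, against 30.3% of all loci, 9.36% higher and 21.0% lower.

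The lower calls of CRK1, CRK4, CRK10 and CRK42 between the lines depended on single arrays. CRK1 lost its call without replicate 3 labelled 35S::AVP1 or replicate 1 or 3 of the BRI1 line. CRK4 lost it without replicate 2 labelled 35S::AVP1, where the difference was -0.45, or any 1 array of the BRI1 line. CRK10 lost it without any 1 array labelled 35S::AVP1 or replicate 1 or 3 of the BRI1 line. CRK42 lost it without any 1 array labelled 35S::AVP1, replicate 2 or 3 of the BRI1 line, or wild type replicate 2 (limma adjusted p up to 0.137). The other 8 members called between the lines passed in all 9 fits that leave out 1 array.

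Relatives of the CRKs outside the list were then examined. Of 14 such genes 12 were measured: CRK43, CRK44, CRK45, CRK46 and PDLP1 to PDLP8, which are membrane proteins of plasmodesmata with the same DUF26 domains and no kinase. By limma 0 of 12 were called on the arrays labelled 35S::AVP1 or in the BRI1 line, where 11.1% and 0.0818% of all loci were. At an unadjusted p under 0.05 there were 2 and 0 of them, where 5027 and 1102 of 20777 loci were. Their differences from wild type ran from -0.06 to 0.27 on the arrays labelled 35S::AVP1 and from -0.05 to 0.07 in the BRI1 line.

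Genes of immune receptor complexes with which CRKs work gave 2 rises and 0 falls among 15 on the arrays labelled 35S::AVP1 (13.3%, close to the 11.1% of all loci called). In the BRI1 line limma called 0 of them, with 2 at an unadjusted p under 0.05, where 1102 of 20777 loci were. RBOHD (AT5G47910), the NADPH oxidase that makes reactive oxygen outside the cell, was at 8.44, 8.67 and 8.48 on the arrays labelled 35S::AVP1, against 7.91, 7.62 and 7.07 in wild type (1.00, limma adjusted p = 0.00828). CPK6, a calcium-dependent kinase, rose by 0.43 (limma adjusted p = 0.0173), a call lost without replicate 2 or 3 labelled 35S::AVP1 or wild type replicate 1 or 2. The receptors and co-receptors FLS2, EFR, CERK1, LYK5, BAK1 and SERK4 and the kinase BIK1 were not called. EFR, the receptor for bacterial elongation factor, was at 0.30 (limma adjusted p = 0.0758). It was called without replicate 2 labelled 35S::AVP1 (limma adjusted p = 0.0306) or with replicate number as a block (0.0443).

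Salicylic acid genes gave 4 rises and 0 falls among 19 measured of 20 on the arrays labelled 35S::AVP1. These rises were 21.1%, where 11.1% of all loci were called and 6.31% called higher. The median difference of the list was 0.21 where that of all loci was 0.05. In the BRI1 line limma called 0 of them, with 0 at an unadjusted p under 0.05, where 1102 of 20777 loci were. EDS5 (0.68), the exporter of the salicylic acid precursor from plastids, NIMIN1 (0.42) and WRKY38 (0.36) rose on the arrays labelled 35S::AVP1. PR2, a secreted glucanase induced by salicylic acid, was at 4.90, 6.48 and 5.11 on the arrays labelled 35S::AVP1, against 4.09, 4.40 and 4.12 in wild type. It rose by 1.29 (limma adjusted p = 0.0304), and by 0.80 without replicate 2 labelled 35S::AVP1. The call of PR2 was lost without any 1 wild type array or replicate 3 of the BRI1 line (adjusted p up to 0.0780), and that of NIMIN1 without replicate 2 or 3 labelled 35S::AVP1. PR2 also failed with a trended robust variance prior (limma adjusted p = 0.0883) and with the 6 compared arrays alone (0.0753). NIMIN1 failed with the 6 compared arrays alone as well (limma adjusted p = 0.0507). All 19 genes of the list differed upward on the arrays labelled 35S::AVP1, where 13115 of 20777 loci did. The differences of NPR4 (0.01) and NPR3 (0.02) were below the median of all loci. Apart from EDS5, NIMIN1, WRKY38 and PR2, none of the list was called. Among the uncalled genes were PR1 (0.12), PR5 (0.10), EDS1 (0.18), PAD4 (0.16), ICS1 (0.65, limma adjusted p = 0.124) and PBS3 (0.90, limma adjusted p = 0.0585). PBS3 was called without replicate 2 labelled 35S::AVP1 (0.50, limma adjusted p = 0.0110), without replicate 3 (0.0244), or with replicate number as a block (0.0310). ICS1 was called without replicate 3 labelled 35S::AVP1 (limma adjusted p = 0.0390) and SAG101 without wild type replicate 1 (0.0398). Of 10 measured WRKY factors, a family that binds W-box promoter elements, 20% were called on the arrays labelled 35S::AVP1, where 11.1% of all loci were. WRKY54 rose (1.24) and WRKY6 fell (-0.38), and each failed in 6 of the 9 fits that leave out 1 array. WRKY54 also failed after median centring (limma adjusted p = 0.0518), quantile normalization (0.0518) and with a trended robust variance prior (0.115). WRKY6 failed with that prior (0.0546) and with the 6 compared arrays alone (0.0507). In the BRI1 line limma called 0 WRKY factors, with 1 at an unadjusted p under 0.05, where 1102 of 20777 loci were.

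Replicate 2 labelled 35S::AVP1 was the highest of its genotype for 16 of 36 CRKs, 11 of 19 salicylic acid genes and 7 of 10 WRKY factors. Replicates 1 and 3 with this label were highest for 11 and 9 CRKs, and the same was not counted over all loci. The CRKs highest on replicate 2 included CRK4, CRK12, CRK13, CRK18, CRK19 and CRK41. The salicylic acid list summed to a log2 level of 113.8 on that array, against 107.6 and 108.6 on the other two of its label; the BRI1 line had 100.9 to 102.4 and wild type 100.2 to 106.0. Among wild type arrays, replicate 1 was highest for 16 of 36 CRKs and 7 of 10 WRKY factors, and replicates 2 and 3 for 10 CRKs each. Wild type replicates 1 and 2 were highest for 8 salicylic acid genes each. In the BRI1 line, replicate 2 was also highest for 7 of 10 WRKY factors, and replicate 3 for 9 of 19 salicylic acid genes. The WRKY list summed to 63.8 on wild type replicate 1, against 53.1 to 59.0 on all other arrays. WRKY40, WRKY33 and WRKY22 were at 7.31, 7.35 and 6.92 there, and were not called in either line (-0.93, -0.69 and -0.94 on the arrays labelled 35S::AVP1). Both comparisons with wild type use that array. A setting added after the data were seen left out replicate 2 labelled 35S::AVP1 and wild type replicate 1 together. The CRK counts on the arrays labelled 35S::AVP1 against wild type were then again 5 higher and 7 lower, with CRK10 called in place of CRK24. Whether these arrays stand apart from others of their genotype, and why, was not tested.

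**Figure D4:**
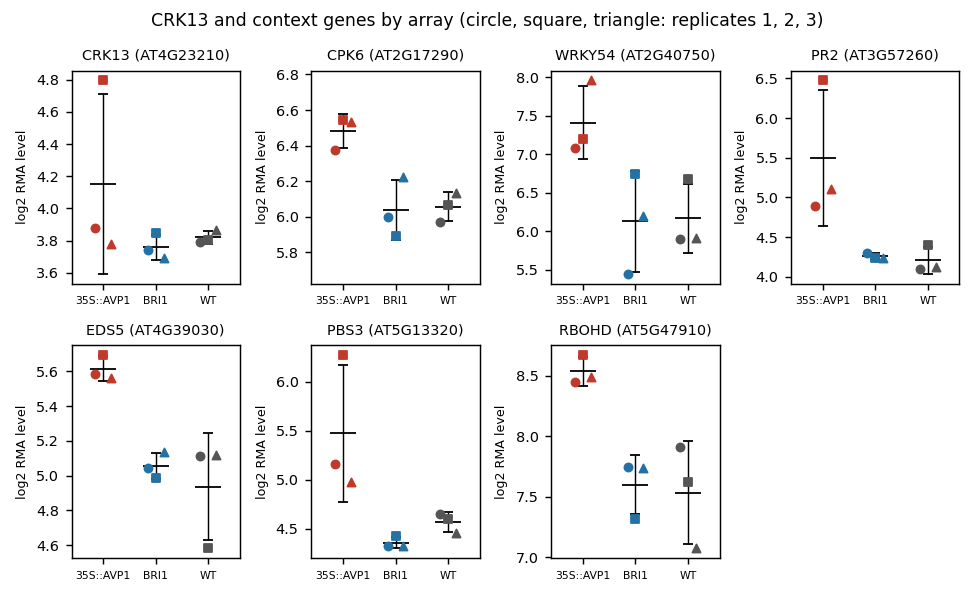
Log2 RMA level by genotype for CRK13 and for 6 genes of immune and salicylic acid signalling; each symbol is 1 array (circle, square and triangle for replicates 1, 2 and 3), the bar is the mean and the whiskers are ± 1 SD (n = 3), and each panel has its own vertical axis, which does not start at 0. Replicate 2 labelled 35S::AVP1 stands above the others of its genotype in CRK13 (4.80), PR2 (6.48) and PBS3 (6.28), whereas all 3 arrays labelled 35S::AVP1 are high in RBOHD and EDS5.

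Some markers of other organs also rose on the arrays labelled 35S::AVP1. Of 3 root genes, PYK10 (0.86) and PHO1 (0.81) rose there, and of 4 floral genes, SEP3 (1.80) and AG (0.57). These were 66.7% and 50%, where 6.31% of all loci were called higher. PYK10 was also above wild type on every array of the BRI1 line (0.68, limma adjusted p = 0.0902). With a trended robust variance prior that difference was called (limma adjusted p = 0.0283). Between the lines PYK10 was not called (-0.18, limma adjusted p = 0.368). The call of PHO1 was lost without replicate 1 labelled 35S::AVP1 (limma adjusted p = 0.0742) or wild type replicate 3 (limma adjusted p = 0.0573). The summed log2 level of the root list was 23.3 to 23.6 on these arrays; the BRI1 line had 22.0 to 23.1 and wild type 21.4 to 21.9. The floral list summed to 18.0 to 19.5 on the arrays labelled 35S::AVP1. For this list the BRI1 line had 15.2 to 15.9 and wild type 15.8 to 16.3. The root hair gene EXPA7 and the floral organ genes AP3 and PI were not called. AP3 was called without replicate 3 labelled 35S::AVP1 (limma adjusted p = 0.0357). The leaf gene CA1 (0.15) was called only with the trended robust variance prior (limma adjusted p = 0.0478). RMA values have no zero, so absence of a marker cannot be read from them. The part of these markers in the CRK differences was not tested.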

How the data were processed

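RNA of 9 samples was hybridised to Affymetrix ATH1 arrays, per the series' design text. The deposited values are log2 levels, 1 per locus and array. The authors made them with RMA, per the submitters' processing notes; its version, the map from probes to loci, the arrays normalized together and the genome build are not given in sources used for this work. Arrays hold no counts, so their number limits the precision.

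The deposited log2 values were used without further scaling. With limma 3.58.1 in R 4.3.3, the 20777 loci on 9 arrays were modelled by genotype (6 residual and 3.94 prior degrees of freedom), and p-values of each contrast were adjusted over all loci by the Benjamini-Hochberg method. Calls are at an adjusted p under 0.05, and intervals are 95% intervals of that model. The fit was tested on simulated data. Symbols come from a gene table of TAIR10.1, which held 20508 of the loci and all 40 members. For CRK1 and CRK17 its synonym was used, since it lists them as RKF2 and EMB1290.

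The members, lists, tests and alternatives were chosen with earlier results of these data known. All members could be named. Values for every array were given for called members, for those with the 6 largest differences on the arrays labelled 35S::AVP1 or the 4 largest in the BRI1 line, and for the first and last of each group; CRK13, CRK20, PR2, PBS3 and RBOHD were added after their values were seen. At most 4 called genes of a list were named, and genes of the lists named without a call were also chosen afterwards. Alternatives were median centring, quantile normalization, removal of dim loci, a trended robust variance prior, the 6 compared arrays alone, replicate number as a block, and leaving out each array.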

Additional observations from a re-analysis of the deposited data

Results flagged for a closer look

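The difference of the 2 lines from wild type was itself tested as the BRI1 line minus the arrays labelled 35S::AVP1, and 12 CRKs passed (limma adjusted p under 0.05). Higher in the BRI1 line were CRK21 (5.69 on the log2 scale), CRK22 (3.90), CRK19 (1.79), CRK18 (1.69), CRK28 (0.69) and CRK29 (0.65). Lower in the BRI1 line were CRK41 (-1.06), CRK5 (-0.82), CRK4 (-0.65), CRK10 (-0.64), CRK42 (-0.55) and CRK1 (-0.32). For CRK10 and CRK42 the difference between the lines passed while neither line passed against wild type.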

How the results depend on the processing

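Against wild type, 11 of the 12 calls on the arrays labelled 35S::AVP1 passed under every alternative that could test them, and CRK24 (0.20 to 0.29 throughout) failed without several single arrays and after median centring (adjusted p 0.0883), quantile normalization (0.0738), a trended robust prior (0.0581) and with the 6 compared arrays alone (0.0577). With dim loci removed, which leaves 19 members in the fit, the count of rises there was 3, since CRK1 and CRK41 were no longer tested. When single arrays were left out, the counts were 4 to 5 higher and 7 lower. The BRI1 line had 0 CRK calls under every alternative. Between the lines, the count lower in the BRI1 line was 2 to 7 when single arrays were left out, and that higher 6 to 7; 8 of the 12 calls passed under every alternative that could test them, and CRK1 (0.0753) and CRK42 (0.0517) also failed after median centring. No difference of a called member changed sign. The labels do not say that a replicate number marks a shared batch: deviations of arrays sharing a number correlated at 0.02 to 0.48, above 0.1 in 5 of 9 pairs, those of arrays with different numbers at -0.50 to 0.49, above 0.1 in 2 of 18, and 7 of 9 arrays correlated best with their own number, a hint from the data only. With replicate number as a block, 13 CRKs were called on the arrays labelled 35S::AVP1 (CRK42 in addition, adjusted p = 0.0489) and 0 in the BRI1 line, and 12 between the lines. Over all loci the BRI1 line had 17 calls against wild type, 3 to 10 when single arrays were left out and 7 with the 6 compared arrays alone. Between the lines, calls higher in the BRI1 line were 39.2% of all calls, 56.4% after median centring and 52.4% after quantile normalization; in the BRI1 line against wild type these shares were 47.1%, 64.7% and 64.3%. On the arrays labelled 35S::AVP1 against wild type, calls higher were 57.0% of all calls, 47.3% after median centring and 49.1% after quantile normalization, so the majority direction over all loci turned with the scaling.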
